A study of Capra hircus with 14 samples.

Results

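The genes described here act in the making of milk fat and in its release as membrane-wrapped globules. They were taken by symbol from a table of 30277 goat genes. The 10 symbols are CD36, LPL and FABP3, which act in fatty acid uptake, GPAM, LPIN1, DGAT1 and DGAT2, which act in esterification, and XDH, BTN1A1 and MFGE8, which act in globule secretion. Each of the 10 was found as 1 row. Of these, 9 passed the filter on low counts and were tested, and BTN1A1 had 0 counts in all 14 libraries.

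In the lactating mammary gland, lipoprotein lipase releases fatty acids from circulating triglycerides, and the alveolar epithelial cell takes them up beside those it makes itself. Fatty acids are joined stepwise to glycerol-3-phosphate in the endoplasmic reticulum. Glycerol-3-phosphate acyltransferases take the first step, lipins remove the phosphate, and diacylglycerol acyltransferases add the last acyl chain to give triglyceride. The triglyceride droplet is coated by perilipins and leaves the cell wrapped in apical membrane, a step that needs butyrophilin and xanthine dehydrogenase. Several of these genes also act in fibroblasts, fat cells or other tissues, so their RNA does not by itself mark a mammary cell.

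RNA was sequenced from wild-type goat (Capra hircus) cells at 7 days of a culture series, with 2 libraries a day. The day 0 libraries came from cells called GEF, labelled as a fibroblast cell line, grown in DMEM with fetal bovine serum. Libraries of days 1, 2, 3, 4, 6 and 8 came from the same kind of cells after the switch to R induction medium, renewed at 2-day intervals, and carry the cell line name CiMEC and the cell type label of induced mammary epithelial cells from day 1 on. All plates were precoated with Matrigel, and all 14 libraries carry the treatment label reprogramming. What R induction medium holds is not given in the sources. No day 8 culture without it was analysed here, so medium, time in culture and time since the last renewal cannot be told apart. Whether the libraries of a day came from separate cultures is not said in the labels, so the p-values rest on a spread that may be technical only.

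Library totals ran from 20515126 to 24746010 estimated counts. The labelled cell types were compared with marker genes. Of the 9 mammary secretory markers found, 6, including the caseins CSN1S1, CSN1S2 and CSN2 and the lactalbumin gene LALBA, had 0 counts in all libraries, and CSN3 had 1 count in total. The summed level of 6 epithelial markers was 9945 to 10972 CPM (counts scaled by library size with TMM) at day 0 and 39935 to 40802 CPM at day 8, and that of 6 fibroblast markers was 25680 to 26674 CPM and 13854 to 14164 CPM. Within the epithelial sum, KRT5 went from a mean of 3810 to 25368 CPM and KRT14 from 4388 to 14522 CPM, while the simple epithelial keratins KRT8 and KRT18 went from 1910 to 169.9 CPM and from 158 to 1.57 CPM. Of the fibroblast markers, VIM, COL1A1, COL1A2, PDGFRB and S100A4 had lower means at day 8. THY1 went the other way, from a mean of 191 to 291 CPM. Casein and lactalbumin genes were thus at or near 0 under the mammary label, while the basal keratins were abundant on both days.

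From day 0 to day 8, 4 of the 9 tested genes rose, namely DGAT2, CD36, XDH and GPAM. By contrast MFGE8, LPIN1 and DGAT1 fell, and LPL and FABP3 did not pass the test. DGAT2, which makes triglyceride, rose 29.9-fold, CD36, a fatty acid transporter of the plasma membrane, rose 9.14-fold, and GPAM, a mitochondrial glycerol-3-phosphate acyltransferase, rose 3.49-fold. The lactadherin gene MFGE8, whose product coats the globule membrane, fell 3.29-fold. The call was made with edgeR's quasi-likelihood test at a Benjamini-Hochberg adjusted p under 0.05 over 15712 genes. In that comparison 36.0% of all tested genes were called higher and 35.0% lower, so the counts of 4 and 3 among 9 are close to the background. The median log2 fold change of the 9 was 0.64 at day 8 against day 0, beside 0.015 for all tested genes. That 0.64 is the value of LPL, which had an SE of 0.69 and was not called, so it does not show a rise of the 9 as a set. A test over all 7 days called all 9 genes, as it did 92.4% of all tested genes. For LPL and FABP3 that call was lost under DESeq2 with adjusted p of 0.0997 and 0.0816. The LPL call was also lost when the replicate number was added to the edgeR model (adjusted p = 0.0601). It was lost as well without 1 library of day 1, 2, 3 or 8, and the FABP3 call without 1 library of day 0 or day 6. Since the libraries are bulk RNA, a change in the number of cells of a type and a change in RNA per cell cannot be told apart.

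**Figure D1:**
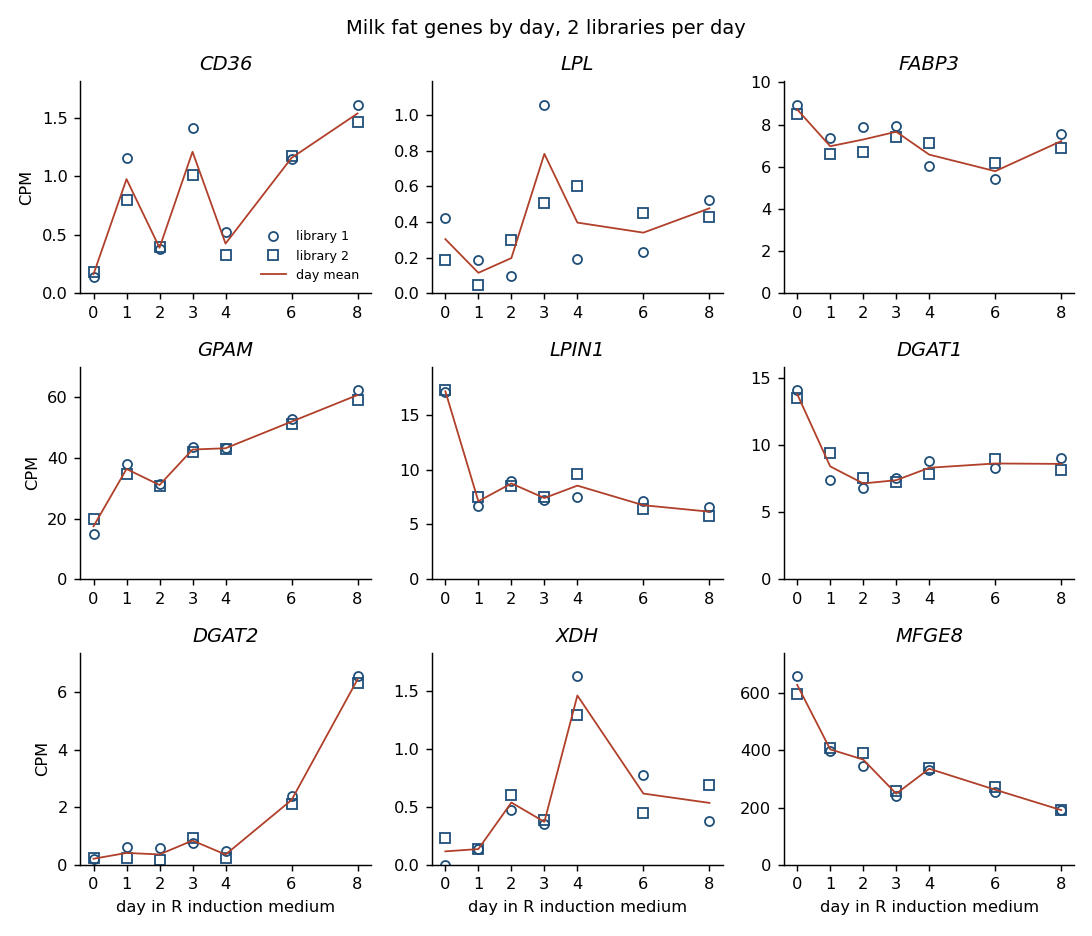
Level of each tested gene in CPM (vertical axis, from 0, with its own scale per panel) against day in R induction medium. Circles and squares are the 2 libraries of a day and the line joins the day means. MFGE8 starts at 659 and 598 CPM and ends at 190.4 and 191.5 CPM, while DGAT2 stays under 1 CPM through day 4 and reaches 6.55 and 6.33 CPM at day 8.

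CD36 imports long-chain fatty acids across the plasma membrane. It had 3 and 4 counts in the day 0 libraries, or 0.141 and 0.186 CPM. Day 1 gave 1.157 and 0.796 CPM, day 2 0.380 and 0.400 CPM, day 3 1.41 and 1.01 CPM, and day 4 0.527 and 0.324 CPM. Day 6 gave 1.15 and 1.17 CPM and day 8 1.61 and 1.46 CPM. Both libraries of days 1, 3, 6 and 8 thus lay above both libraries of days 0, 2 and 4. The change alternated in sign from step to step, up to and including the step from day 4 to day 6. The log2 fold change was 2.54 ± 0.54 (SE) from day 0 to day 1, with an adjusted p of 0.0002. It then fell by 1.31 to day 2 (adjusted p = 0.0208), rose by 1.61 to day 3 (adjusted p = 0.00428), fell by 1.49 to day 4 (adjusted p = 0.00551) and rose by 1.44 to day 6 (adjusted p = 0.00741). Each of these later steps lost its call when a single library was left out, with adjusted p of 0.164 without day 1 replicate 1, 0.0507 and 0.0627 without day 3 replicate 1, and 0.0963 without day 4 replicate 2. The step from day 1 to day 2 was also lost under DESeq2, at 0.0623, and without either day 2 library, at 0.0969 and 0.078, and the step from day 3 to day 4 without day 4 replicate 2, at 0.0834. The rise over the whole series, 3.19 ± 0.50 (SE) on the log2 scale with an adjusted p of 4.72e-06, kept its call under every alternative that tested CD36. Against day 1 the day 8 level was 0.65 higher on the log2 scale, with an adjusted p of 0.116.

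LPL encodes lipoprotein lipase, which cleaves circulating triglycerides and is secreted by many cell types, fat and muscle cells among them. Its counts were low throughout, between 1 and 24 per library. The 2 libraries gave 0.422 and 0.186 CPM at day 0, 0.185 and 0.0442 CPM at day 1, 1.06 and 0.506 CPM at day 3 and 0.522 and 0.430 CPM at day 8. Libraries of every pair of neighbouring days in the order of levels overlapped. LPL was called higher at day 3 than at day 2, by 1.95 on the log2 scale with an adjusted p of 0.025, and at day 8 than at day 1, by 2.01 with an adjusted p of 0.0366. The first call was lost under DESeq2 (adjusted p = 0.0686), without day 2 replicate 1 (0.229) and without day 3 replicate 1 (0.248). The second was lost under DESeq2 (adjusted p = 0.0612) and without day 1 replicate 2 or either day 8 library. From day 0 to day 8 the change of 0.64 ± 0.69 (SE) on the log2 scale had an adjusted p of 0.418, so a difference was not detectable at this depth.

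Proteins that act on lipase outside or inside the cell were measured too. GPIHBP1, which holds the enzyme on capillary endothelium, had 0 counts in all libraries. ANGPTL4, a secreted inhibitor of lipoprotein lipase, rose from 10.9 ± 0.769 CPM (SD, n = 2) at day 0 to 76.4 ± 2.94 CPM (SD, n = 2) at day 8, a log2 fold change of 2.80 with an adjusted p of 1.19e-19. The ANGPTL4 mean was already 87.4 CPM at day 1 and was highest at day 2, at 122 CPM. The lipase maturation gene LMF1 changed by −0.40 with an adjusted p of 0.032, a call lost without day 0 replicate 1 and without day 8 replicate 2. That call was also lost under upper-quartile scaling (adjusted p = 0.0645) and under DESeq2 (0.0959). The LMF1 relative LMF2 fell by 1.09 on the log2 scale, with an adjusted p of 2.33e-13.

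FABP3 encodes a cytosolic fatty acid binding protein, abundant in heart muscle and in the lactating mammary gland. It gave 8.95 and 8.49 CPM at day 0, 7.36 and 6.59 CPM at day 1, 5.41 and 6.17 CPM at day 6, and 7.55 and 6.89 CPM at day 8. In CPM the day 0 libraries were the highest of the 14, and the later days overlapped their neighbours in the order of levels. The step from day 0 to day 1 was called lower, at −0.32 ± 0.14 (SE) on the log2 scale with an adjusted p of 0.04. That call was lost under upper-quartile scaling, DESeq2, both other filters, a fit of the 2 days alone and 3 of the left-out libraries, with adjusted p between 0.0505 and 0.217. Over the whole series FABP3 changed by −0.27 ± 0.14 (SE), with an adjusted p of 0.076. Its epidermal relative FABP5 fell first and then rose, from 86.1 ± 2.69 CPM at day 0 to 37.7 CPM at day 1 and 1025 ± 10.1 CPM at day 8 (SD, n = 2), a log2 fold change of 3.57 over the whole series with an adjusted p of 2.75e-24. FABP5 may share reads with near-identical copies, so its level is uncertain. On a per-length scale (TPM, counts divided by the deposited gene length and scaled to the same sum in each library), FABP3 made up 18.1% ± 1.02 of the summed level of FABP3 and FABP5 at day 0 and 1.51% ± 0.112 at day 8 (SD, n = 2). In TPM the mean of FABP3 itself was 18.3 at day 0, 18.2 at day 1 and 19.5 at day 3, so day 0 was not its highest day on that scale.

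GPAM encodes the mitochondrial acyltransferase that joins the first fatty acid to glycerol-3-phosphate. Its libraries gave 15.0 and 19.9 CPM at day 0, 38.0 and 34.8 CPM at day 1, 31.5 and 30.7 CPM at day 2 and 43.5 and 42.1 CPM at day 3. Day 4 gave 43.3 and 43.1 CPM, day 6 52.9 and 51.2 CPM, and day 8 62.4 and 59.3 CPM. Apart from days 3 and 4, which overlapped, both libraries of each day stood apart from those of the next level. The largest step among its neighbouring days was the first, with a log2 fold change of 1.06 ± 0.09 (SE) from day 0 to day 1 and an adjusted p of 4.69e-10. GPAM rose again from day 2 to day 3 by 0.46 (adjusted p = 0.000105). Smaller steps were a fall of 0.23 from day 1 to day 2 (adjusted p = 0.0354), a rise of 0.27 from day 4 to day 6 (adjusted p = 0.00778) and one of 0.22 from day 6 to day 8 (adjusted p = 0.0216). These smaller calls did not survive the loss of some libraries. The fall was lost without day 1 replicate 1 or either day 2 library and under DESeq2, the rise to day 6 without day 6 replicate 1 (adjusted p = 0.0556), and the last without either day 6 library or day 8 replicate 1. On the TPM scale the means of days 6 and 8 were 18.4 and 18.6 and their libraries overlapped, so the rise from day 6 to day 8 was not seen there. Over the whole series the log2 fold change by the count test was 1.80 ± 0.09 (SE), with an adjusted p of 6.39e-15, and against day 1 it was 0.74 with an adjusted p of 2.09e-08.

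The other glycerol-3-phosphate acyltransferases were chosen for description after their values were seen. On the per-length scale their summed level with GPAM was 72.7 ± 5.29 TPM at day 0 and 75.8 ± 0.0619 TPM at day 8 (SD, n = 2). Within that sum GPAM went from 6.88% ± 1.12 to 24.5% ± 1.07. GPAT4, the endoplasmic reticulum enzyme, remained the most abundant of the 4 at 51.9 and 43.9 TPM on those days, and GPAT3 stood at 15.1 and 11.7 TPM. Levels between the end points were not flat, since at day 1 the sum stood at 108 TPM and GPAT4 at 79.5 TPM. By the count test GPAT4 fell by 0.33 and GPAT3 by 0.45 on the log2 scale from day 0 to day 8. GPAT2, known mainly from testis in mouse, was called higher by 1.13 with an adjusted p of 0.009, lost without day 0 replicate 1 (0.77, adjusted p = 0.12).

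LPIN1 encodes a phosphatidate phosphatase that makes diacylglycerol and also acts on transcription in the nucleus. Its libraries gave 17.1 and 17.3 CPM at day 0 and 6.71 and 7.52 CPM at day 1. From day 2 to day 6 all libraries lay between 6.40 and 9.62 CPM, and day 8 gave 6.55 and 5.77 CPM. The 2 day 0 libraries stood apart from the other 12, and later days overlapped their neighbours in the order of levels. The log2 fold change at the step from day 0 to day 1 was −1.27 ± 0.12 (SE), with an adjusted p of 3.23e-09. From day 1 to day 8 the change was −0.21, with an adjusted p of 0.194. A further call of −0.34 from day 4 to day 6 (adjusted p = 0.0388) was lost under RLE scaling, upper-quartile scaling, DESeq2, a fit of the 2 days alone and 4 of the left-out libraries. The step from day 3 to day 4 was called only without day 4 replicate 1 (0.38, adjusted p = 0.0456). Over the whole series LPIN1 fell 2.79-fold, with an adjusted p of 2.52e-10.

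In the lipin family, whose other members were likewise picked after their values were seen, LPIN2 was the most abundant on every day. It made up 81.6% of the summed per-length level at day 0 and 75.9% at day 8. The share of LPIN1 was 12.0% and 5.41%, and that of LPIN3, an intestinal and liver form in mouse, 6.42% and 18.7%. LPIN3 rose by 1.35 from day 0 to day 1 and was 1.21 higher at day 8 than at day 0, while LPIN2 fell by 0.44 over the same span (all log2). LPIN1 and LPIN3 thus changed places in the order of levels between day 0 and day 1. The summed level of the 3 lipins was 46.8 ± 2.13 TPM at day 0 and 39.5 ± 0.211 TPM at day 8 (SD, n = 2).

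DGAT1 and DGAT2 catalyse the same last step of triglyceride synthesis through unrelated proteins, and DGAT1 is the one with a known milk fat variant in cattle. DGAT1 gave 14.1 and 13.5 CPM at day 0, 7.41 and 9.38 CPM at day 1, 6.75 and 7.49 CPM at day 2 and 9.02 and 8.14 CPM at day 8. Both day 0 libraries lay above all later ones, which ranged from 6.75 to 9.38 CPM. DGAT1 fell by 0.71 from day 0 to day 1 (adjusted p = 2.03e-05), and no later step was called except that from day 1 to day 2 without day 1 replicate 1 (−0.40, adjusted p = 0.0438). Its log2 fold change over the whole series was −0.69 ± 0.12 (SE), with an adjusted p of 3.11e-05, and from day 1 to day 8 it was 0.03, with an adjusted p of 0.865.

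DGAT2 took another course. Its 2 libraries had 4 and 5 counts at day 0, 13 and 5 at day 1, 12 and 3 at day 2, 17 and 24 at day 3 and 10 and 5 at day 4. They had 52 and 47 counts at day 6 and 138 and 147 at day 8. In CPM these are 0.187 and 0.232 at day 0, 0.749 and 0.933 at day 3, 0.479 and 0.231 at day 4, 2.38 and 2.12 at day 6, and 6.55 and 6.33 at day 8. Days 8, 6 and 3 stood apart in that order, and days 0, 1, 2 and 4 overlapped. From day 4 to day 6 DGAT2 rose by 2.65 ± 0.44 (SE) on the log2 scale (adjusted p = 1.71e-05), and from day 6 to day 8 by 1.51 ± 0.29 (SE) (adjusted p = 0.00013). The day 8 level was 4.90 ± 0.43 (SE) higher than that of day 0 (adjusted p = 2.95e-10) and 3.96 higher than that of day 1 (adjusted p = 1.64e-09). All 4 calls held under every alternative run. The value against day 1 ranged from 3.41 without day 1 replicate 2 to 4.83 without day 1 replicate 1. The step from day 2 to day 3 missed the threshold at 1.20 with an adjusted p of 0.0558, and passed it under 6 alternatives with adjusted p of 0.0124 to 0.0491. A fall of 1.25 from day 3 to day 4 (adjusted p = 0.0427) rested on few counts and was lost without either day 3 library, day 4 replicate 2 or either day 8 library, with adjusted p of 0.0598 to 0.297.

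On the per-length scale the 2 enzymes came to similar levels at day 8. DGAT1 stood at 12.7 ± 0.108 TPM and DGAT2 at 0.336 ± 0.0627 TPM at day 0, and at day 8 the values were 8.39 ± 0.673 and 10.9 ± 0.348 TPM (SD, n = 2). The share of DGAT2 in their sum was 2.26% and 2.89% in the day 0 libraries, between 3.35% and 18.3% in those of days 1 to 4, 33.4% and 29.1% at day 6 and 55.7% and 57.4% at day 8. Both day 6 libraries lay above all earlier ones and both day 8 libraries above those of day 6. These shares depend on the deposited gene lengths, whose origin the sources do not give.

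**Figure D2:**
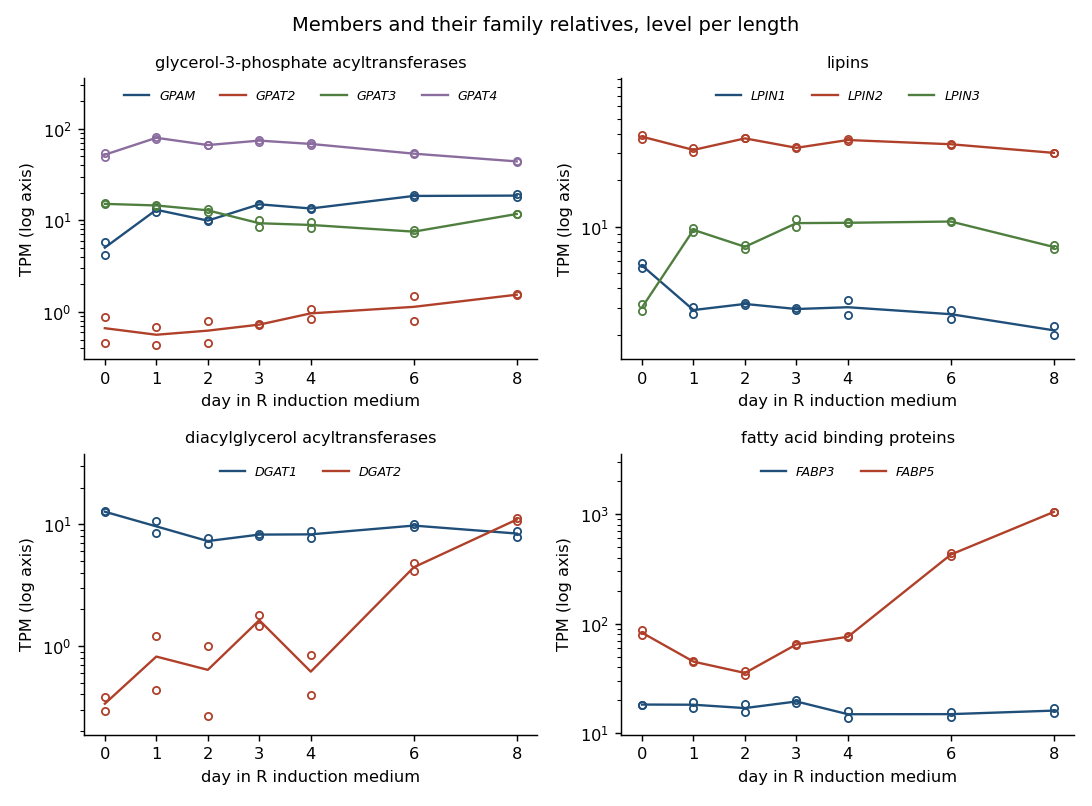
Level per length in TPM (log axis) against day for 4 enzyme or binding protein families, with open circles for the 2 libraries of a day and lines through the day means. DGAT2 climbs from 0.336 TPM at day 0 to 10.9 TPM at day 8, past DGAT1, FABP5 climbs away from FABP3, and LPIN1 and LPIN3 change places after day 0.

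XDH encodes xanthine dehydrogenase, an enzyme of purine breakdown that in the mammary cell also binds butyrophilin and adipophilin at the apical membrane. It had 0 and 5 counts in the day 0 libraries, 3 and 3 at day 1, 10 and 12 at day 2 and 8 and 10 at day 3. It then had 34 and 28 counts at day 4, 17 and 10 at day 6 and 8 and 16 at day 8. Its highest level was at day 4, with 1.63 and 1.29 CPM, and both libraries of that day stood above all others. XDH rose by 1.96 from day 3 to day 4 on the log2 scale, with an adjusted p of 0.00279, and this call held under each alternative that tested XDH. A rise of 1.94 from day 1 to day 2 (adjusted p = 0.0334) was lost under DESeq2 (0.0538) and without any 1 of the 4 libraries of those days. A fall of 1.24 from day 4 to day 6 (adjusted p = 0.0334) was lost under DESeq2 (0.129) and without day 4 replicate 1, day 4 replicate 2 or day 6 replicate 2. The day 8 level was 2.16 ± 0.76 (SE) above that of day 0, with an adjusted p of 0.0143. Without day 0 replicate 1, the library with 0 counts, the value was 1.20 with an adjusted p of 0.176, and without day 8 replicate 2 it was 1.66 with an adjusted p of 0.146. The rise of 1.95 from day 1 to day 8 (adjusted p = 0.0221) was likewise lost without either day 1 library or day 8 replicate 2.

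BTN1A1, which encodes butyrophilin, the partner of xanthine dehydrogenase on the globule membrane, had 0 counts in each library. A count of 3, the limit that a count of 0 allows, corresponds to 0.121 to 0.146 CPM in a single library and 0.00976 CPM over all 14. Such limits cover counting error only. No difference between days could be tested for it.

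MFGE8 encodes lactadherin, a secreted protein that binds phosphatidylserine and integrins and is made by fibroblasts and macrophages as well as mammary epithelium. It was the most abundant of the 10 genes per length on every day, at 496 TPM at day 0 and 160 TPM at day 8. Its libraries gave 659 and 598 CPM at day 0, 399 and 407 CPM at day 1, 345 and 389.5 CPM at day 2 and 240 and 257 CPM at day 3. Day 4 gave 333 and 338 CPM, day 6 254 and 270.2 CPM, and day 8 190.4 and 191.5 CPM. Every day stood apart from the next in the order of levels except days 3 and 6, which overlapped. MFGE8 fell from day 0 to day 1 by 0.64 (adjusted p = 8.02e-10), from day 2 to day 3 by 0.56 (adjusted p = 4.56e-08), from day 4 to day 6 by 0.36 (adjusted p = 1.89e-05) and from day 6 to day 8 by 0.46 (adjusted p = 9.94e-07), all on the log2 scale. It rose by 0.43 from day 3 to day 4 (adjusted p = 1.5e-06), and the step from day 1 to day 2 missed the threshold at −0.13 with an adjusted p of 0.0613. That step passed it under 6 alternatives, namely no filter (adjusted p = 0.0323), the stricter filter (0.0436), the fit of the 2 days alone (0.0027), and without day 0 replicate 1 (0.0277), day 0 replicate 2 (0.0163) or day 2 replicate 2 (0.0111). Over the whole series the log2 fold change was −1.72 ± 0.06 (SE), with an adjusted p of 5.73e-18, and from day 1 to day 8 it was −1.08 with an adjusted p of 6.32e-14. EDIL3, which encodes the protein most similar to lactadherin in its domains, was picked after its values were seen. It was higher between the end points, with means of 36.9 TPM at day 0, 95.8 at day 1, 107 at day 2 and 118 at day 3. Day 4 gave 78.5 TPM, day 6 109 TPM and day 8 39.9 TPM. Between the end points themselves, 93.4 CPM at day 0 and 95.2 CPM at day 8, the log2 fold change was 0.03 with an adjusted p of 0.695. Without day 0 replicate 2 the value was 0.15 with an adjusted p of 0.0299.

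The steps between days and the comparison within the induction medium were set beside each other for the 9 tested genes. From day 0 to day 1, 2 genes rose and 4 fell, where 34.8% of all tested genes were called higher and 34.5% lower. From day 1 to day 2, 1 rose and 2 fell (background 25.3% and 23.1%), and from day 2 to day 3, 3 rose and 1 fell (background 21.2% and 24.1%). The next step, from day 3 to day 4, had 2 higher and 2 lower calls (background 28.8% and 21.6%), and the one from day 4 to day 6 had 3 and 3 (background 23.0% and 31.2%). Between day 6 and day 8, 2 rose and 1 fell (background 25.6% and 23.2%). From day 1 to day 8, where both groups were in R induction medium, 4 rose and 1 fell (background 31.8% and 35.0%). None of these 9 genes moved in a single direction at every step by the test: GPAM had 4 higher calls and 1 lower, and MFGE8 4 lower and 1 higher. LPIN1 and DGAT1 changed chiefly at the first step and DGAT2 at the last 2. The comparisons share libraries, so their values are not independent.

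**Figure D3:**
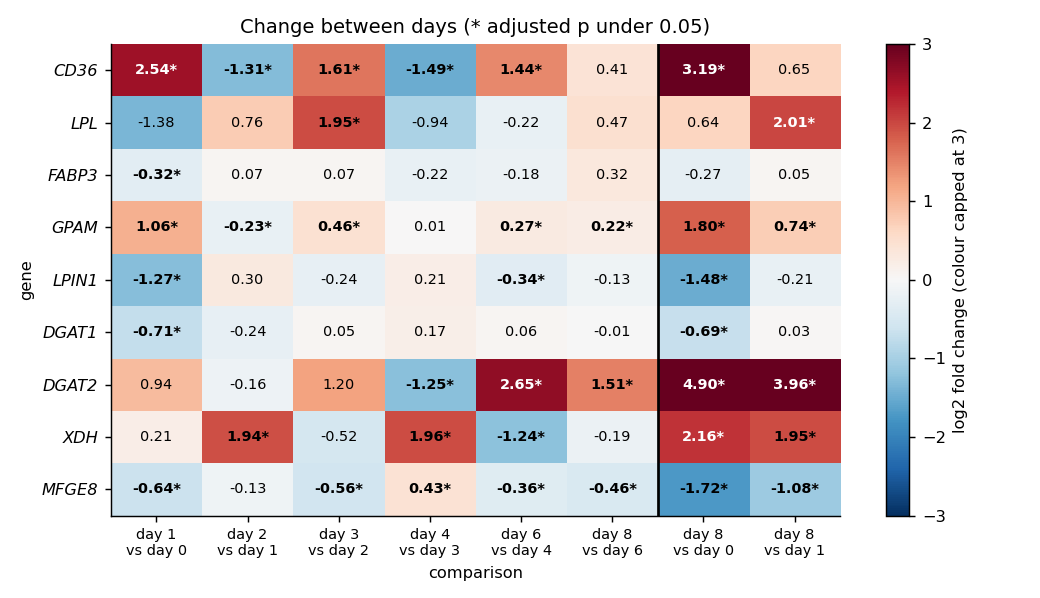
Log2 fold change (colour and number) of each tested gene in the 6 steps between neighbouring days and, right of the line, day 8 against days 0 and 1. An asterisk marks an adjusted p under 0.05 in edgeR's quasi-likelihood test. CD36 alternates in sign up to the step from day 4 to day 6, and DGAT2 carries its 2 largest step values, 2.65 and 1.51, at the end.

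Compared per length at day 8, the tested genes ran in the order MFGE8 at 160 TPM, GPAM at 18.6, FABP3 at 16.1, DGAT2 at 10.9, DGAT1 at 8.39, LPIN1 at 2.14, CD36 at 1.37, LPL at 0.25 and XDH at 0.21 TPM. At day 0 the order was MFGE8 at 496, FABP3 at 18.3, DGAT1 at 12.7, LPIN1 at 5.61, GPAM at 5.03, DGAT2 at 0.336, LPL at 0.15, CD36 at 0.14 and XDH at 0.04 TPM. GPAM and DGAT2 had moved up the order and LPIN1 and DGAT1 down. LPL and CD36 at day 0, and LPL and XDH at day 8, were too close and too low to be put in order. At day 0 LPIN1 and GPAM could not be put in order either, since their libraries overlapped at 5.44 and 5.79 TPM and at 4.20 and 5.86 TPM.

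Beyond the 10 genes, 126 other genes of milk fat metabolism were listed by role, of which 121 were found by symbol and 106 tested. Between day 0 and day 8, 46 rose and 45 fell, or 30 and 19 of them by at least 2-fold, with a median log2 fold change of −0.03. Those counts stand beside backgrounds of 36.0% and 35.0% called, and of 16.1% and 12.7% called with at least a 2-fold change. By role, uptake and activation had 9 higher and 9 lower among 19 tested, fatty acid synthesis 7 and 8 among 18, esterification 9 and 8 among 21, globule and secretion 8 and 6 among 18, and regulators 11 and 9 among 22. Their medians lay between −0.12 and 0.28 on the log2 scale. None of these 5 lists moved mainly in 1 direction over the whole series.

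For fatty acid synthesis the largest falls were those of the desaturases that make long polyunsaturated fatty acids. FADS2 went from 182 ± 13.8 to 17.0 ± 0.804 CPM and FADS1 from 204 ± 0.312 to 34.1 ± 1.38 CPM (SD, n = 2), log2 fold changes of −3.42 and −2.58 with adjusted p of 3.91e-21 and 1.43e-21. The largest rises were 1.77 for ACSS2, which turns acetate into acetyl-CoA, a carbon source of fatty acid synthesis, and 1.68 for the elongase gene ELOVL7. The central enzymes of the pathway, FASN and ACACA, gave log2 fold changes of −0.14 and 0.01 with adjusted p of 0.069 and 0.932. They are named after their values were seen. At the first step, from day 0 to day 1, 12 of the 18 tested genes of fatty acid synthesis fell and 1 rose, beside backgrounds of 34.5% lower and 34.8% higher. This list and step were picked after the counts were seen.

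Among esterification genes CDS1, which makes CDP-diacylglycerol for phospholipids, rose by 2.10 and the acyltransferase gene AGPAT5 by 1.63. The lipid phosphatase gene PLPP2 fell by 2.68, and AGPAT2, an acyltransferase needed for fat storage in adipose tissue, fell by 1.13 (all log2, day 8 against day 0). The uptake list had its largest changes in FABP5 and ANGPTL4, given above, and in LMF2 and the lipoprotein receptor gene LRP1, which fell by 1.06. Between day 4 and day 6, 14 of the 21 tested esterification genes fell and 2 rose, beside backgrounds of 31.2% lower and 23.0% higher, while DGAT2 and GPAM rose. The median log2 fold change at that step, which was likewise picked after the counts were seen, was −0.31 for the list and −0.083 for all tested genes.

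Genes of the globule and the lipid droplet gave the largest values. PLIN4, a droplet coat gene, had 0 counts at day 0 and 593 at day 8, at least 191-fold higher when 3 counts are set as the limit for the day 0 pair. Its mean was highest at day 4, at 25.4 CPM, and stood at 13.4 CPM at day 8. MUC15, a mucin of the globule membrane, had 0 counts at day 0 and 237 at day 8, at least 76.5-fold higher. PLIN2, the adipophilin gene, named after its values were seen, rose from 30.9 to 484 CPM, by 3.97 on the log2 scale. CIDEC, a droplet fusion gene of fat cells, fell by 4.54, and MUC1 by 2.46, from 6.74 to 1.21 CPM. CIDEA, a relative of CIDEC that is abundant in the lactating mammary gland of mice, went from 3.45 to 5.35 CPM, a rise of 0.64 with an adjusted p of 0.009 that was lost without day 8 replicate 2. Globule genes thus went in both directions. BTN1A1 was at 0, MFGE8, MUC1 and CIDEC were lower, and PLIN2, PLIN4, MUC15 and XDH were higher at day 8. The XDH value rested on 5 counts at day 0 and 24 at day 8, and its call did not hold in every alternative, as given above.

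Of the regulators, the prolactin receptor gene PRLR rose from 8 counts at day 0 to 379 at day 8, by 5.48 on the log2 scale. ELF5, a transcription factor of mammary alveoli and of other epithelia, rose from 8 to 224 counts, by 4.72, with a range of 3.95 to 6.60 when single libraries were left out. CEBPB fell by 1.77 and INSIG1, which retains the sterol-sensing SREBP complex in the endoplasmic reticulum, by 1.62. PRLR and ELF5 thus rose from near 0 to a low level, while the casein genes stayed at or near 0. From day 1 to day 2, a step picked after the counts were seen, 13 of the 22 tested regulators rose and 1 fell. The backgrounds there were 25.3% higher and 23.1% lower.

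**Figure D4:**
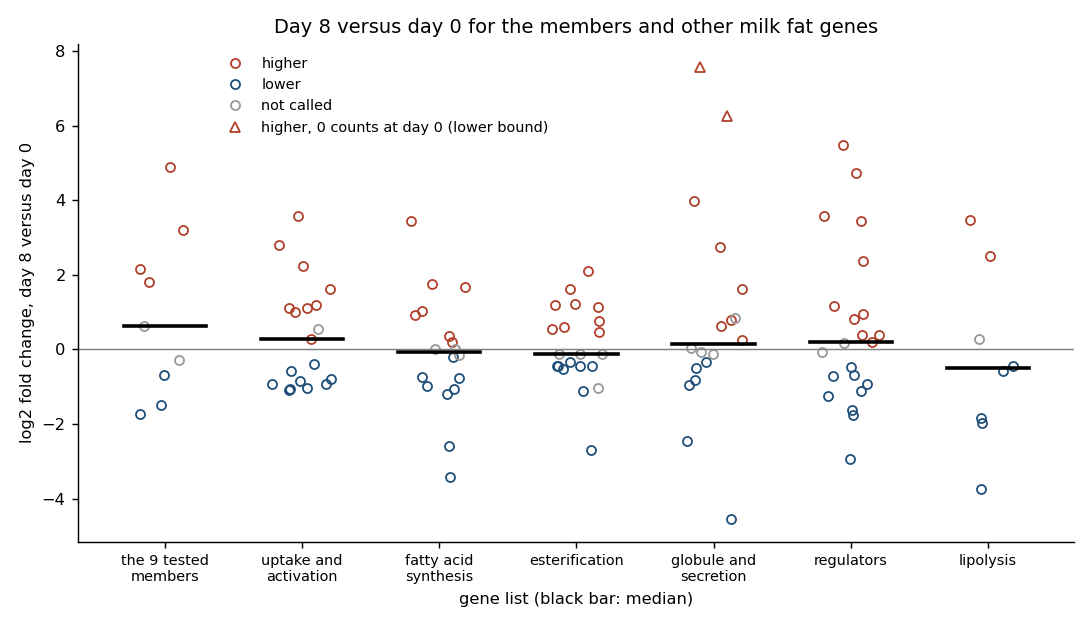
Log2 fold change from day 0 to day 8 for the 9 tested members and 106 other milk fat genes in 6 lists by role. Each circle is 1 gene, coloured by its call, triangles mark 2 genes with 0 counts at day 0 at their lower bound, and black bars are medians, which for the 6 lists lie between −0.51 and 0.28.

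Other cell types that express some of the 10 genes were followed through their markers. Adipocyte markers, which bear on CD36, LPL and DGAT2, summed to 11.6 to 12.1 CPM at day 0 and 2.99 to 3.53 CPM at day 8 over 9 genes found of 10, with PCK1 and RETN at 0 in all libraries. Their sum was lower at day 8, where CD36 and DGAT2 were higher, and the drop lay mainly in CIDEC, from a mean of 6.44 to 0.269 CPM, and LIPE, from 4.19 to 1.17 CPM. The means of PLIN1 (0.512 and 0.920 CPM), ADIPOQ (0.419 and 0.567 CPM) and LEP (0 and 0.243 CPM) were higher at day 8. The 9 endothelial markers summed to 30.1 to 31.3 CPM and 4.65 to 6.37 CPM, and CDH5 had 1 count in all libraries together. Leukocyte markers, 8 found of 9, went from 134 to 135 CPM at day 0 to 9.56 to 10.1 CPM at day 8, most of it CD14, with PTPRC and AIF1 at 0. That sum and MFGE8 were both lower at day 8. Striated muscle markers, 7 found of 8, summed to 0.789 to 1.73 CPM at day 0 and 18.4 to 20.4 CPM at day 8, where most of it was ACTC1, with MYOD1 and MYOG at 0 in all libraries. Sebaceous and stratified epithelial markers went from 29.1 to 32.6 CPM at day 0 to 925 to 963 CPM at day 8 over 9 genes found of 10. Between these end points DGAT2, CD36, GPAM and FABP5 were higher too, but the courses differed. At day 1 the marker sum was lower, at 17.3 to 18.1 CPM. On that day CD36 and GPAM were called higher than at day 0, DGAT2 was not called and FABP5 had a lower mean. The higher marker sum at day 8 lay in the stratified genes KRT1, KRT10, IVL, SBSN and DSG1. Of the lipid genes in the list, FAR2 went from a mean of 7.43 CPM to 0.623 CPM, ELOVL3 stood at 0.186 and 0.160 CPM, and AWAT1 and AWAT2 had at most 2 counts in any library. The part of these cell types in the changes was not tested.

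Genes with the most similar course over the 14 libraries were sought among 10201 genes by the root mean square difference of centred log2 CPM. For MFGE8 the nearest were SMPD1, ANXA11 and DBN1, the first at 0.136 against a standard deviation of 0.538 for MFGE8 itself. GPAM had DNAJA4, AFF1 and NFIB, the first at 0.121 against 0.575. LPIN1 had BTBD6, ADGRA3 and PCGF2, the first at 0.111 against 0.479. DGAT1 lay closest to SPHK2, CERK and CXXC1 (0.105 against 0.312) and FABP3 to RFC5, PDCD5 and NVL (0.0818 against 0.196). The low-count genes matched less closely. Among the nearest to CD36 were TTC39B and PAG1, the first at 0.244 against 0.963. DGAT2 was nearest to CROT, CEBPA and GRHL1 (0.594 against 1.62), XDH to ST5, MASP1 and COL12A1 (0.525 against 1.10) and LPL to HMGCS1, ARNTL2 and NSDHL (0.556 against 0.818). These are descriptions of likeness over libraries that share days, with no test.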

How the data were processed

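RNA of 14 goat libraries was depleted of ribosomal RNA with a Ribo-Zero Gold kit and made into TruSeq libraries, per the labels' protocols. The deposited table holds the authors' estimated counts per gene and library, of which 90.0% are whole numbers, with a gene length per row. The submitters' processing notes list DESeq2 1.16.1, HTSeq and FastQC 0.10.1. The sources do not give the aligner, build or strand setting, so no coordinates are printed, and reads of overlapping, antisense or near-identical genes could have been assigned to either. The 7 day means in the table were not used, and 1 line without values was left out. Estimated counts were rounded and tested with edgeR 4.0.16 in R 4.3.3, with TMM factors, the filterByExpr filter, a group per day over all 14 libraries, the quasi-likelihood F test and Benjamini-Hochberg adjustment over 15712 genes, and a gene was called where its adjusted p was under 0.05. Residual degrees of freedom were 7. The SE of a log2 fold change is its size divided by the square root of F.

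Library totals were 20515126 to 24746010 estimated counts. Libraries of a day differed by more than sampling noise, since chi-square divided by its degrees of freedom ran between 1.80 (day 1) and 8.12 (day 0), so none was counted as a copy. CPM are TMM-scaled, and floors use 3 counts. TPM divide counts by the deposited length and are scaled over all genes. They carry no TMM factors, so a step between days can differ in size between CPM and TPM or be seen on only 1 of these scales. The script was tested on simulated counts before use. The median log2 fold change of all tested genes lay within 0.1 of 0 in all 8 comparisons.

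The 10 genes and the lists by role were chosen with earlier results of these data known. Named were all 10 genes, and in 5 of the 6 lists the 2 largest rises and 2 largest falls called between day 0 and day 8 with at least 5 CPM on either day. Also named were the 3 genes nearest in course to each member, with a mean of at least 5 CPM (1 of these genes is not reported here), and relatives said in the text to be chosen after their values were seen. Alternatives were RLE and upper-quartile scaling, DESeq2 1.42.0, no filter and a stricter filter (50 counts in at least 2 libraries), a fit of only the 2 days compared, a replicate block and leaving out each library. No sequence is printed.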

Additional observations from a re-analysis of the deposited data

How the results depend on the processing

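Of 398 counts of calls recomputed under alternatives, 367 stayed within 1.5 times, and of 2087 single-gene values 1982 kept their direction and side of the threshold, 64 lost a call, 15 gained one and 26 changed sign, none of the last called in either direction. The stricter filter left 6 of the 10 genes, dropping CD36, LPL and XDH. It gave 1 higher call from day 0 to day 1, 0 from day 1 to day 2, 1 higher and 1 lower from day 3 to day 4, and 2 higher from day 0 and from day 1 to day 8. DESeq2 gave 0 higher and 0 lower from day 1 to day 2 and 1 lower from day 4 to day 6. A fit of only the 2 days gave 0 higher from day 1 to day 2 and 2 higher from day 1 to day 8. With single libraries left out, the ranges were 0 to 1 higher and 0 to 3 lower from day 1 to day 2, 1 to 4 higher from day 2 to day 3, 0 to 2 lower from day 3 to day 4, 1 to 3 lower from day 4 to day 6, 1 to 2 higher from day 6 to day 8 and 2 to 4 higher from day 1 to day 8. The causes were not tested.

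Sign changes without a call were as follows on the log2 scale. GPAM from day 3 to day 4 was −0.018 under RLE, −0.018 under DESeq2 and −0.054 in the fit of 2 days. Over left-out libraries it ran from −0.0097 to 0.039. The ranges over left-out libraries were −0.75 to 4.63 for XDH from day 0 to day 1, −0.24 to 2.01 for LPL from day 1 to day 2, −0.058 to 0.18 for FABP3 from day 1 to day 2, −1.41 to 0.71 for DGAT2 from day 1 to day 2, −0.045 to 0.19 for FABP3 from day 2 to day 3 and −0.027 to 0.12 for DGAT1 from day 2 to day 3. The others were −0.81 to 0.81 for LPL from day 4 to day 6, −0.027 to 0.14 for DGAT1 from day 4 to day 6, −0.68 to 0.26 for XDH from day 6 to day 8, −0.081 to 0.067 for DGAT1 from day 6 to day 8, −0.031 to 0.13 for FABP3 from day 1 to day 8, −0.13 to 0.21 for DGAT1 from day 1 to day 8 and −0.068 to 0.15 for EDIL3 from day 0 to day 8.

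Whether replicate numbers pair libraries across days is not said in the labels. Over 21 pairs of days the correlation of same-numbered deviations ran from −0.0962 to 0.0689. No shared effect of the replicate number was thus seen, which cannot show whether cultures were paired. With the replicate block, 4 rather than 3 of the genes were called higher from day 2 to day 3, DGAT2 being the addition at an adjusted p of 0.0491, and 8 rather than 9 differed over the 7 days. Depth limits LPL, XDH, CD36 and the early days of DGAT2, whose libraries hold at most 34 counts each. A missed threshold there does not show that levels were alike.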

Other observations

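Triglyceride breakdown was measured beside its synthesis. All 8 listed lipolysis genes were tested between day 0 and day 8, and 2 rose and 5 fell, with a median log2 fold change of −0.51, where 36.0% of all tested genes were called higher and 35.0% lower. They are named here after their values were seen, with adjusted p from edgeR's quasi-likelihood test. HILPDA, which encodes a droplet protein that inhibits adipose triglyceride lipase, rose from 1.21 ± 0.140 CPM to 13.4 ± 0.570 CPM (SD, n = 2), by 3.46 on the log2 scale (adjusted p = 1.24e-13). MGLL, the monoacylglycerol lipase gene, rose from 4.25 ± 1.02 CPM to 24.0 ± 1.34 CPM (SD, n = 2), by 2.50 (adjusted p = 2.65e-15). G0S2, which encodes another inhibitor of adipose triglyceride lipase, fell by 1.98 (adjusted p = 2.9e-08), and LIPE, the hormone-sensitive lipase gene, by 1.83 (adjusted p = 3.37e-06). The gene of adipose triglyceride lipase itself, PNPLA2, fell by 0.56 (adjusted p = 1.56e-07), from 78.2 to 52.9 CPM. The 2 inhibitor genes thus moved in opposite directions.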
